A study of Mus musculus with 4 samples.

Results

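Genes of cholesterol synthesis, uptake and transport were followed in single cells of mouse testicular organoids (TOs) and mouse testes. They were chosen by name, as a list of 31 symbols, and all 31 were found among the 32285 genes of the deposited count matrices. Of these, 9 act in the mevalonate and squalene steps, 9 in the sterol ring steps, 5 are regulators, 2 store or release cholesterol esters, and 6 move cholesterol within or out of the cell. The study compared TOs with testes in 2 libraries each, one library being one 10x Genomics 3′ run of unsorted, enzymatically dissociated cells. TOs were built from dissociated testis cells of neonatal ICR mice, which re-aggregated in microwells and were then cultured in basement membrane extract at 34 °C in a medium with follicle-stimulating hormone and testosterone. The design text gives 28 days for both TOs and testes, as do the published methods, whereas the extraction protocol of the labels names day 21 TOs. The TOs came from independent batches, but the labels do not say which batch gave which library, nor how many mice were pooled, so that the spread between the 2 libraries of a group may be technical.

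In each library, unique molecular identifiers (UMIs, counted RNA molecules) were summed over all cells of one type, and a level is given in CPM, the UMIs of a gene per 1000000 UMIs of those cells. After filtering, 8713 to 9867 cells per library remained, and 21 to 31 kept barcodes were shared by any pair of libraries. Cell types were named from fixed marker genes after clustering without the 31 genes. Leydig cells numbered 1711 and 1541 in the 2 TO libraries and 541 and 317 in the 2 testis libraries. Values are given in this order throughout, replicate 1 before replicate 2. The 5 Leydig markers were Cyp11a1, Cyp17a1, Insl3, Hsd3b1 and Star. All 5 were detected in each library, at a summed level of 8966 and 3425 CPM in TOs and 12386 and 17781 CPM in testes. Free RNA of germ cells reached the somatic cells of testes far more than those of TOs: 17 germ cell genes took 0.315 to 0.867% of the UMIs of a somatic type in testes and 0.005 to 0.0224% in TOs. A gene was therefore left out of the test in a type where its level in the other cells of the libraries was at least 5 times its level in that type.

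Cholesterol is built from acetyl-CoA. Acat2 joins the first acetyl units, Hmgcs1, Mvk, Pmvk, Mvd, Idi1, Fdps and Fdft1 encode enzymes that lead through mevalonate to squalene, Sqle and Lss make and close the ring precursor, and the enzymes from Cyp51 to Dhcr7 trim lanosterol to cholesterol. The transcription factor SREBP2 (Srebf2), carried by Scap and held back by Insig1 and Insig2 when sterol is plentiful, switches on these genes. In Leydig cells, cholesterol is the substrate of androgen synthesis: Star brings it to the inner mitochondrial membrane, where Cyp11a1 cleaves its side chain, and Soat1 and Lipe store it as ester and release it.

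The sequence that SREBP proteins bind at such genes, the sterol regulatory element, was searched in the promoters of the members because SREBP2 switches on the synthesis genes among them. RefSeq promoter windows (GRCm38.p6, 250 bases before to 50 after a gene's start) were present for 25 of the 31 genes; Abcg1, Fdft1, Fdps, Npc1, Sqle and Stard4 had none. The element TCACNCCAC, read on both strands, was held by Hmgcs1 alone of the 25, and by 1.24% of all 32851 windows. Without its last base, as TCACNCCA, a form chosen after that result was seen and contained in the longer one, it was held by 4 members and by 4.36% of all windows. CCAAT, the box bound by the partner factor NF-Y, was held by 20 of the 25 (37.4% of all windows), and GGGCGG, the Sp1 box, by 23 (35.7%). The 4 stretches with the shorter form are shown 5′ to 3′ on the gene's strand, with the matched letters in capitals, which for Hmgcs1 are the longer element and for the other three the shorter form.
Hmgcs1, chr13:119690174-119690262, + strand: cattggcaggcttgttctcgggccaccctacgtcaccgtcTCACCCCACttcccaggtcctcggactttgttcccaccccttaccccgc
Apoe, chr7:19699354-19699438, - strand: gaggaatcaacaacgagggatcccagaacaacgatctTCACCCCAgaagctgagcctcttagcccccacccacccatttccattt
Msmo1, chr8:64733708-64733795, - strand: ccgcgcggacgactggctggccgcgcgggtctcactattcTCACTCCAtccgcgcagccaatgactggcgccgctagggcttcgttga
Srebf2, chr15:82147067-82147154, + strand: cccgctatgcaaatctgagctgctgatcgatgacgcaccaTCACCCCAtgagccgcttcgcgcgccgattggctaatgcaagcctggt
A match is a description of letters, and its use in these cells was not measured.

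Across cell types, 17 of the 18 enzymes of synthesis had their highest mean level in Leydig cells in testes, Fdft1 being the exception, and 13 of the 18 did in TOs. In testes, 22 of the 31 members had their highest mean level in Leydig cells among 11 named types, and for 17 of these both Leydig libraries lay above both libraries of the next type. Sc5d, the C5 desaturase, stood at 279 and 225 CPM in testis Leydig cells, 12.1 times the mean of the next type, spermatogonia. Tm7sf2, a C14 sterol reductase, was 18.8 times as high in Leydig cells as in the next type, and Msmo1, the C4 methyl oxidase, 5.64 times as high. In TOs the same ranking among 10 types put 17 members highest in Leydig cells, of which 12 were clear of the next type. Dhcr7, which encodes the last reductase of the pathway, was highest in Leydig cells in testes (mean 185 CPM) and in Sertoli cells in TOs (mean 89.1 CPM). Ebp, the sterol isomerase, had mean levels of 173 CPM in Leydig and 160 CPM in Sertoli cells of testes, whose libraries overlapped, and of 99.3 and 137 CPM in TOs, where Sertoli cells were the higher. The other enzymes with a higher mean elsewhere in TOs were Mvd in spermatogonia, overlapping Leydig cells, Fdft1 in round spermatids and Acat2 in early spermatocytes.

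Transport genes followed another order. Apoe, the lipoprotein component secreted by macrophages, had a mean of 17642 CPM in TO macrophages and 10881 CPM in testis macrophages, 9.2 and 8.31 times the next type, stroma. Npc1 and Npc2, which release cholesterol from lysosomes, and Abcg1, a cholesterol exporter, were also highest in macrophages in both TOs and testes. For Abcg1 in testes the macrophage and endothelial libraries overlapped. In testes 4 members had their highest mean in germ cells. Fdft1, squalene synthase, had a mean of 336 CPM in round spermatids and 301 CPM in late spermatocytes, whose libraries overlapped. Lipe, the hormone-sensitive lipase, had a mean of 167 CPM in elongating spermatids, 2.68 times the next type, endothelial cells, and the only one of the 4 clear of the next type. Srebf2 was highest in spermatogonia and Insig2 in late spermatocytes.

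**Figure D1:**
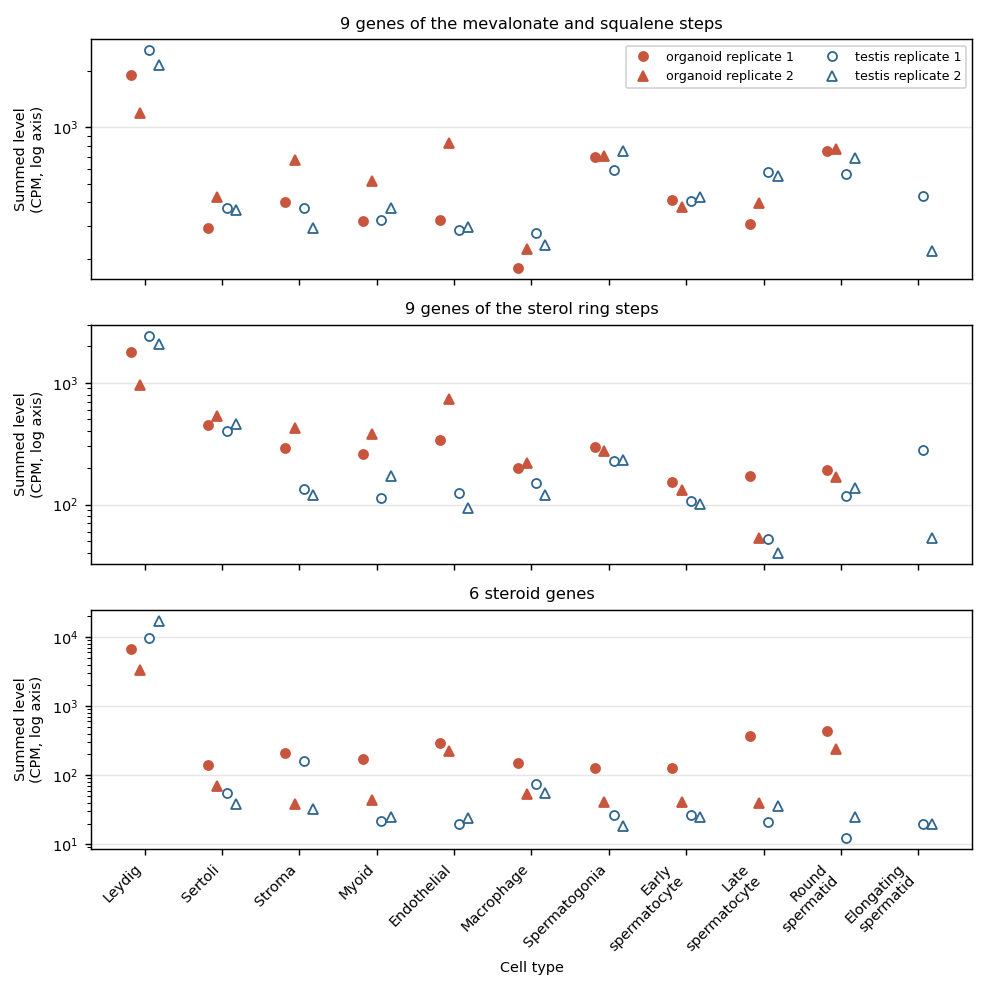
Summed levels (CPM, log axis) of the 9 mevalonate and squalene genes, the 9 sterol ring genes and the 6 steroid genes in each cell type, 1 point per library. Leydig cells lie highest in each panel, and TO Leydig libraries lie below both testis Leydig libraries. TOs have no point for elongating spermatids, and their endothelial points rest on 20 and 11 cells.

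In Leydig cells the sums of both enzyme groups were lower in each TO library than in each testis library. The 9 mevalonate and squalene genes together stood at 1904 and 1197 CPM in TOs and 2575 and 2161 CPM in testes, which is 1551 ± 500 against 2368 ± 293 CPM (mean ± SD, n = 2). The 9 sterol ring genes stood at 1780 and 963 CPM against 2445 and 2073 CPM, or 1372 ± 578 against 2259 ± 263 CPM. TO replicate 2 was the lowest library for both groups of genes.

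Single genes were tested with edgeR's quasi-likelihood test on the summed UMIs of all genes, and a gene counted as called when its p, adjusted over all genes after Benjamini and Hochberg, was below 0.01 and its log2 fold change was past 1 in size. Fold changes are given as log2 of TOs over testes with their standard error. Of the 31 members 30 could be fitted in Leydig cells, Abcg1 being left out at 0 to 0.603 CPM. None was called, where 1.47% of the 12166 genes fitted were called, and 8 members had an unadjusted p below 0.05, where 27.3% of all genes did. DESeq2 called 3 members (Dhcr7, Fdps and Lss, all lower), where it called 5.72% of all genes lower. The fitted fold change was below 0 in 27 of the 30 (48.6% of all genes), with a median of -0.72 where the median of all genes was 0.025. For 13 members each TO library was lower than each testis library (22.5% of all genes), and for 2 each was higher (40.6%).

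Dhcr7 had the largest fold change among the 30. Its level was 50.2 and 30.04 CPM in TOs and 172 and 198 CPM in testes. The higher TO library was still below the lower testis library, with a log2 fold change of -2.36 (SE 0.31, adjusted p = 0.0122), outside the threshold of 0.01. It was called when no gene was left out (adjusted p = 0.00223), without doublet removal (0.00915) and without TO replicate 1 (0.00461).

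In all, 6 members had a log2 fold change below -1, where 11.4% of all genes did. Fdps, farnesyl diphosphate synthase, stood at 447 and 226 CPM against 895 and 780 CPM. The groups did not overlap, and the log2 fold change was -1.48 (SE 0.39, adjusted p = 0.0694). Lss, lanosterol synthase, stood at 31.9 and 20.2 CPM against 63.1 and 55.3 CPM, again without overlap (-1.35, SE 0.28, adjusted p = 0.0407). Cyp51, the lanosterol demethylase, stood at 256 and 137 CPM against 438 and 367 CPM (-1.20, SE 0.36, adjusted p = 0.0961). Tm7sf2 stood at 36.3 and 16.2 CPM against 79.0 and 35.8 CPM, so that TO replicate 1 and testis replicate 2 were alike (-1.30, SE 0.51, adjusted p = 0.167). Soat1, which esterifies cholesterol for storage, stood at 494 and 419 CPM against 1259 and 527 CPM (-1.14, SE 0.45, adjusted p = 0.168). Its 2 testis libraries differed from each other more than testis replicate 2 differed from TOs.

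By role, the fitted fold change was below 0 for all 9 mevalonate and squalene genes (median -0.74, from -1.48 to -0.17) and all 9 sterol ring genes (median -0.96, from -2.36 to -0.49), none of them called. The regulators lay nearer to 0, at a median of -0.29 over 5 genes. Srebf2, the regulator of the synthesis genes, stood at 63.8 and 63.3 CPM in TOs and 82.0 and 56.3 CPM in testes, so the groups overlapped. Scap, the SREBP escort protein, was the member furthest above 0, at 130 and 117 CPM against 68.7 and 87.0 CPM (0.51, SE 0.22, adjusted p = 0.189), and was the higher in either TO library. Lipe and the exporter Abca1 were the other members above 0, at 0.45 and 0.12. Leaving out TO replicate 1 moved the members' median to -1.21, and leaving out TO replicate 2 moved it to -0.37, so the size of the shift differed with the TO library used.

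**Figure D2:**
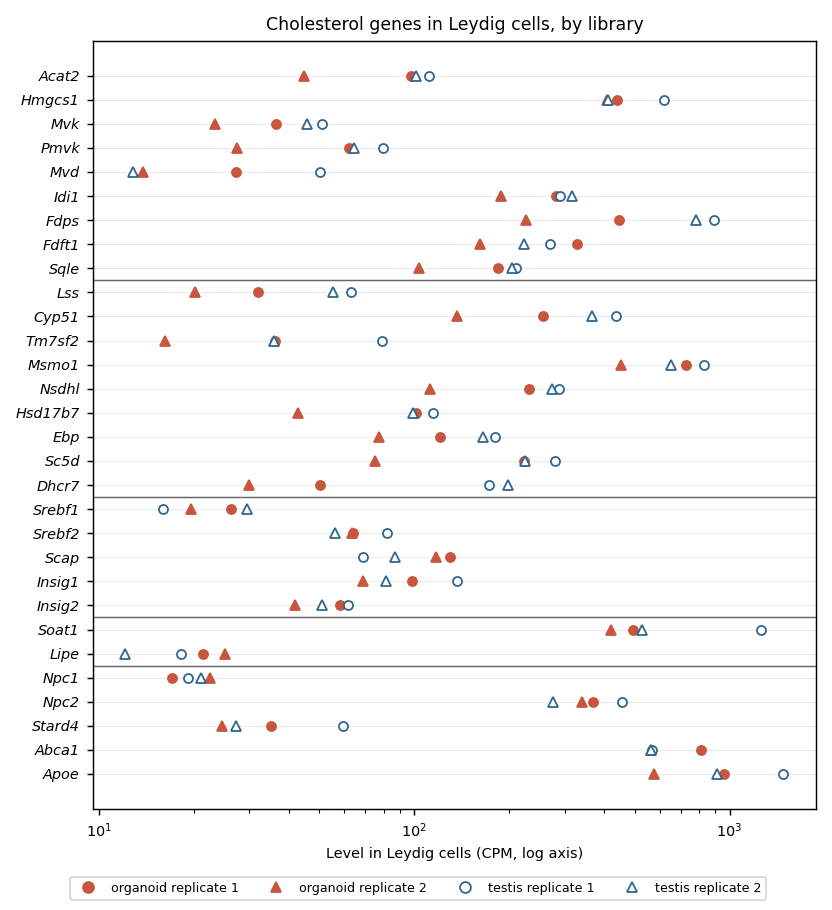
Level of 30 members in Leydig cells (CPM, log axis), 1 point per library, ordered by role with lines between roles. TO points (filled) lie to the left of testis points (open) for most enzymes of the upper blocks, clearest for Dhcr7, while Srebf2, Insig2, Npc1 and Npc2 overlap. Abcg1, at 0 to 0.603 CPM, is not drawn.

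Steroid output was read from the expression of 6 genes that use the cholesterol, since no steroid was measured in these files. Of these, Star, Cyp11a1, Cyp17a1 and Hsd3b1 were also Leydig markers used to name the clusters. Their levels are therefore not independent of which cells were named Leydig. Star stood at 37.6 and 11.2 CPM in TOs and 404 and 741 CPM in testes (-4.70, SE 0.67, adjusted p = 0.0151). Cyp17a1, the 17-hydroxylase of androgen synthesis, stood at 1161 and 82.5 CPM against 3903 and 11403 CPM (-3.76, SE 1.22, adjusted p = 0.116). Hsd3b6, the 3-beta-hydroxysteroid dehydrogenase of adult Leydig cells, stood at 23.7 and 73.3 CPM against 635 and 893 CPM (-4.14, SE 0.59, adjusted p = 0.0145). For these 3 genes the groups did not overlap, and the fold changes were larger in size than that of any member. Hsd17b3, which makes testosterone, stood at 12.6 and 0.815 CPM against 24.8 and 329 CPM (-4.86, adjusted p = 0.107), with a wide gap between the 2 testis libraries. Cyp11a1 was nearer to its testis level, at 2674 and 1300 CPM against 3182 and 2865 CPM (-0.77, adjusted p = 0.279). Hsd3b1 stood higher in TOs, at 2857 and 1882 CPM against 1517 and 1018 CPM (0.74, adjusted p = 0.249). None of the 6 was called. The summed level of the 6 was 5058 ± 2415 CPM in TOs and 13457 ± 5362 CPM in testes (mean ± SD, n = 2).

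The Leydig cells of TOs and testes came mostly from the same clusters. Harmony had aligned the libraries before clustering, so this sharing is in part set by the method. Without Harmony 1122 and 986 cells of TOs, fewer than above, and 541 and 317 of testes were named Leydig. The members' median log2 fold change was then -0.67. A cluster led by Hsd3b6 and Grm7 held 50.2 and 49.7% of the Leydig cells of TOs and 59.3 and 54.6% of those of testes, and one led by Cyp17a1 and kallikreins held 32.1 and 29.4% against 35.9 and 42.0%. Another cluster, led by Gramd1b and Lsamp, held 14.9 and 18.6% in TOs and 4.81 and 3.47% in testes, and its part in the lower levels was not tested. Stroma markers in Leydig cells summed to 913 and 869 CPM in TOs and 1544 and 390 CPM in testes, so they overlapped between the groups.

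In interstitial stromal cells 27 of the 30 members fitted had a fold change above 0 (50.9% of all genes), with a median of 1.08. Of the 30, 7 were called higher and none lower, where 1.98% of 14358 genes were called higher and 15.9% lower. By role, 3 of 9 sterol ring genes were called, 1 of 9 mevalonate and squalene genes, 2 of 5 regulators, none of 2 ester genes and 1 of 5 transport genes.

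Msmo1 had the largest fold change of the stromal cells, at 108 and 165 CPM in TOs and 25.2 and 19.7 CPM in testes (2.63, SE 0.32, adjusted p = 0.000682). Hmgcs1, the cytosolic HMG-CoA synthase, stood at 148 and 200 CPM against 42.9 and 35.5 CPM (2.17, SE 0.27, adjusted p = 0.000782). Insig1, itself an SREBP target, stood at 44.8 and 68.9 CPM against 16.3 and 7.89 CPM (2.25, SE 0.41, adjusted p = 0.0047). Each of these 3 genes was at least 2 times as high in either TO library as in either testis library. Hsd17b7, the 3-ketosteroid reductase of the ring steps, stood at 23.9 and 34.1 CPM against 6.66 and 4.73 CPM (2.37, adjusted p = 0.00319). Sc5d stood at 20.3 and 30.8 CPM against 5.18 and 7.89 CPM (2.01, adjusted p = 0.00868). Stard4, a cytosolic sterol carrier, stood at 17.4 and 25.4 CPM against 5.18 and 3.94 CPM (2.25, adjusted p = 0.0063). The testis values of these 3 genes rest on 5 to 10 UMIs per library. As they were picked by their calls, the lack of overlap between their groups adds nothing to the calls. Srebf1, which drives fatty acid synthesis genes, stood at 38.8 and 37.9 CPM against 12.6 and 18.1 CPM (1.35, SE 0.27, adjusted p = 0.00819).

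Against this direction, Fdft1 stood at 41.0 and 73.5 CPM in TO stroma and 157 and 108 CPM in testis stroma (-1.18, adjusted p = 0.0397, not called). This gene was at 336 CPM in round spermatids of testes. The sterol ring genes together were at 358 ± 96.0 CPM in TO stroma and 126 ± 9.98 CPM in testis stroma (mean ± SD, n = 2). TO stroma came to 50.1 and 55.8% from a cluster led by Clec3b and Gsn, which held 32.1 and 28.0% of testis stroma. Clusters led by Nlgn1 and by Cxcl14 held most of the rest in TOs, and clusters led by Mfap5 and by Gsn and Lvrn most of the rest in testes. Markers of other types were also higher in TO stroma: the 6 myoid markers summed to 2091 and 614 CPM against 214 and 155 CPM, and the 6 Sertoli markers to 577 and 265 CPM against 124 and 110 CPM. The 7 stroma markers summed to 11848 and 13277 CPM against 13490 and 15273 CPM. The part of these cells in the members' values was not tested.

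In Sertoli cells 25 members were fitted, 4 called higher and 1 lower, where 6.41% of 11851 genes were called higher and 12.4% lower. Fdps, Sqle, Tm7sf2, Insig1, Lipe and Apoe were left out. Dhcr7, lower in the Leydig cells of TOs, was called higher here, at 78.8 and 99.3 CPM in TOs and 23.5 and 29.6 CPM in testes (1.83, SE 0.23, adjusted p = 0.000633). The exporters were both called: Abca1 stood at 222 and 141 CPM against 62.2 and 32.4 CPM (1.92, SE 0.31, adjusted p = 0.00224), and Abcg1 at 21.4 and 11.1 CPM against 2.22 and 1.85 CPM (3.01, SE 0.54, adjusted p = 0.00375). Srebf1 stood at 51.2 and 50.2 CPM against 17.8 and 22.2 CPM (1.43, SE 0.21, adjusted p = 0.00151). As these 4 genes were picked by their calls, the lack of overlap between their groups adds nothing to the calls. The Abcg1 level in testes rests on few UMIs, since the testis libraries held 2252043 and 1079499 UMIs of Sertoli cells. The gene called lower was Nsdhl, the C4 sterol dehydrogenase, at 21.4 and 27.3 CPM against 52.0 and 48.2 CPM (-1.0001, SE 0.22, adjusted p = 0.00903), just inside both thresholds. Sertoli cells of TOs and testes came from different clusters, one led by Cst12 and Qpct holding 84.8 and 86.7% in TOs and 23.4 and 24.2% in testes, and one led by Ctnna2 and Mageb18 holding 76.6 and 75.0% in testes. In Sertoli cells the 7 stroma markers summed to 176 and 124.7 CPM in TOs and 28.0 and 14.8 CPM in testes, the 5 Leydig markers to 161 and 70.2 CPM against 40.4 and 34.3 CPM, and the 6 Sertoli markers to 8052 and 8180 CPM against 5023 and 5124 CPM. The part of these cells in the calls was not tested.

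In macrophages 26 members were fitted, and 2 were called higher, where 2.76% of 9905 genes were called higher and 12.9% lower. Msmo1 stood at 62.5 and 66.1 CPM in TOs and 26.3 and 27.2 CPM in testes (1.44, SE 0.32, adjusted p = 0.00457). Insig1 stood at 32.5 and 47.1 CPM against 8.30 and 11.2 CPM (2.22, SE 0.43, adjusted p = 0.00179). Stard4 had a like fold change of 2.15 at a lower level (11.7 and 12.1 CPM against 2.77 and 3.20 CPM, adjusted p = 0.0278). The testis libraries held 722826 and 624329 UMIs of macrophages, so the testis levels of Insig1 and Stard4 rest on few UMIs. Apoe, at 13364 and 21920 CPM against 11631 and 10131 CPM, was higher in both TO libraries but not called (0.87, SE 0.28, adjusted p = 0.0403). Fdft1 and Hsd17b7 were left out, and Mvd, Lss and Tm7sf2 had too few UMIs. In macrophages the 7 stroma markers summed to 241 and 210.0 CPM in TOs and 56.7 and 9.61 CPM in testes, the 6 Sertoli markers to 298 and 111 CPM against 49.8 and 43.2 CPM, and the 6 macrophage markers to 32305 and 28170 CPM against 11880 and 11399 CPM. Their part in the calls was not tested.

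**Figure D3:**
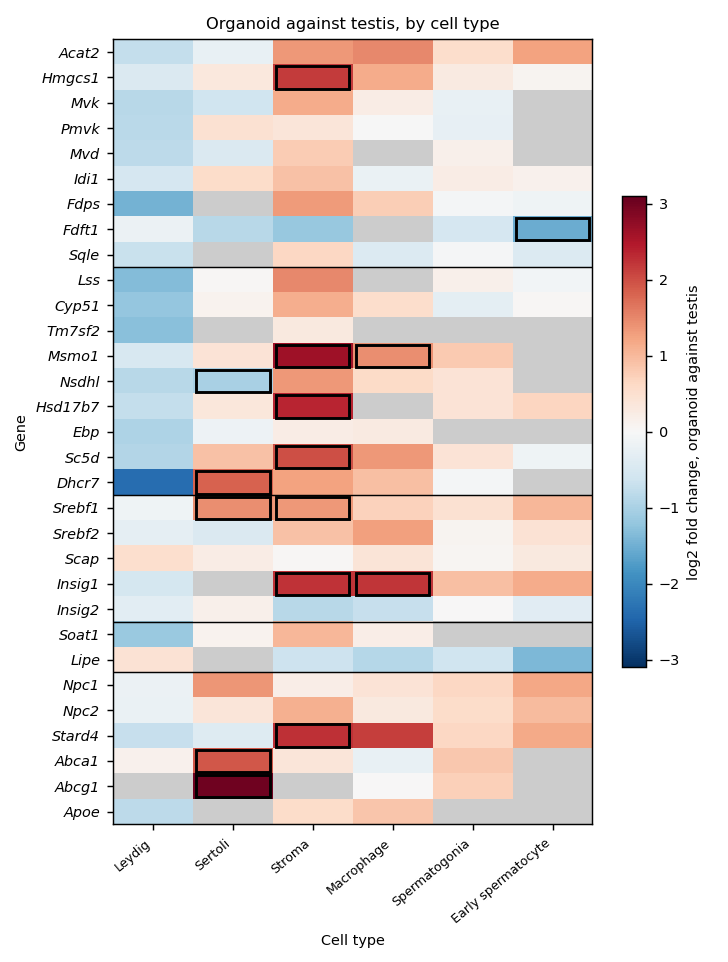
Fitted log2 fold change of TOs against testes for the 31 members (rows, lines between roles) in 6 cell types (columns). Red is higher in TOs, blue is lower, grey was not fitted, and a black frame marks a called gene. The Leydig column is blue for the 18 enzymes, the stroma column is red for 17 of them, and Dhcr7 is darkest blue in Leydig and framed red in Sertoli cells.

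The calls outside Leydig cells were computed again with free RNA treated in other ways. When each library's whole profile, scaled to the germ cell genes in a sum, was subtracted from that sum, none of the members called in Sertoli cells, stroma or macrophages was called any longer. The subtraction took off 42.4 and 13.0% of the stromal UMIs of TOs and 54.9 and 11.6% of those of testes, an uneven share between replicates. It left 0 of 12340 genes called in stroma and 0 of 8364 in macrophages, so the loss there was not particular to the members. In Sertoli cells 87 of 11183 genes were still called higher and 114 lower. The fold changes of the 4 members called higher in Sertoli cells were then 1.33 to 3.32 (adjusted p from 0.011 to 0.0285), and those of the 7 in stroma 1.22 to 3.38 (adjusted p from 0.246 to 0.809). Subtracting in the testis libraries alone, an alternative chosen after that was seen, likewise left 0 members called in these 3 types. Here 0 of 13153 genes were called in stroma and 0 of 9117 in macrophages, so again the loss there was not particular to the members. In Sertoli cells 89 of 11422 genes were called higher and 146 lower. Under that alternative the fold changes of the 4 members called higher in Sertoli cells were 1.22 to 3.18, with adjusted p from 0.0132 to 0.023, and those of the 7 in stroma were 1.10 to 4.07, with adjusted p from 0.148 to 0.309. With genes left out already at 2 times the level of other cells, fewer members were fitted, and the calls were 3 of 11 in Sertoli cells, 1 of 18 in stroma and 0 of 11 in macrophages. These were called higher, as were 423 of 9006 genes in Sertoli cells, 144 of 11234 in stroma and 115 of 7204 in macrophages. Single libraries mattered too. The number of members called moved with the library left out, as did calls over all genes. Such a move is not by itself a result about the members. The median fold change of the members in stroma was 0.75 without testis replicate 2 and 1.08 with all libraries. In macrophages it was 0.47 without testis replicate 1, 0.41 without TO replicate 1 and 0.49 with all libraries.

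Whether Leydig cells differed from the other somatic cells was tested as the fold change in Leydig cells minus the mean fold change in Sertoli cells, stroma and macrophages, with the library as a block. Of 30 members fitted 13 were called, all lower in Leydig cells, where 3.69% of 11981 genes were called lower and 2.08% higher. The difference was below 0 in 26 of the 30 (53% of all genes), with a median of -1.22 where the median of all genes was -0.048. By role, 5 of 9 sterol ring genes, 3 of 9 mevalonate and squalene genes, 2 of 5 regulators, 1 of 2 ester genes and 2 of 5 transport genes were called.

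Dhcr7 had the largest difference, at -3.68 (SE 0.37, adjusted p = 4.9e-05). Hmgcs1 differed by -1.58 (SE 0.26, adjusted p = 0.0013) and Msmo1 by -1.94 (SE 0.33, adjusted p = 0.0014). Of the regulators, Insig1 differed by -2.01 and Srebf1 by -1.25, and of the transport genes Stard4 differed by -2.03. Fdft1 and Lipe were the members with the largest differences above 0, at 1.27 and 1.09, neither called. Fdps, Insig1 and Apoe had been left out in Sertoli cells, where RNA of other cells can set their level, so their differences (-2.05, -2.01 and -2.10) rest in part on such values. The same holds for Fdft1, left out in macrophages, and Lipe, left out in Sertoli cells. Lss had too few UMIs to be tested in macrophages alone, so its difference (-2.35) rests in part on such low counts. With the library profile subtracted none of the 13 was called, with 5 of 11923 genes called in all. Over all 30 members the median difference was then -0.78, with 7 above 0, where the median of all genes was 0.04. The differences of the 13 ran from -4.02 for Dhcr7 to -0.61 for Sc5d (SE 2.31), with Fdps above 0 (adjusted p from 0.165 to 1). These 13 were picked as below 0 in the same counts, so their sign under either subtraction is no further support. With subtraction in testis libraries alone 2 were called lower, Dhcr7 at -4.70 and Apoe at -5.07, where 292 of 11886 genes were called lower. The other 11 ran from -3.90 to -1.22 (adjusted p from 0.0121 to 0.08). Fewer members were called without either testis replicate or without TO replicate 2, and more without TO replicate 1. Calls over all genes moved the same way in each case. The median difference of the members was -1.41 without testis replicate 1 and -1.31 without testis replicate 2. Without TO replicate 1 it was -1.82, and without TO replicate 2 -0.82. Clusters formed without Harmony integration gave 7 calls, all lower, where 405 of 11912 genes were called lower.

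**Figure D4:**
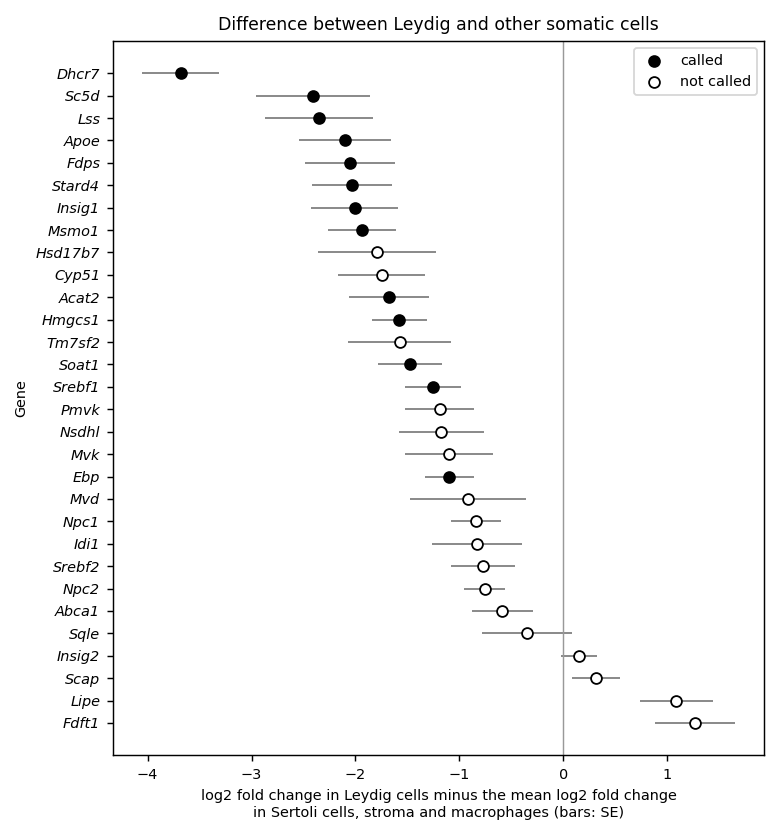
For 30 members, the log2 fold change (TOs over testes) in Leydig cells minus the mean of Sertoli cells, stroma and macrophages, with bars of 1 SE. Filled points are the 13 called members, all left of 0, with Dhcr7 furthest left at -3.68. Fdft1 and Lipe lie furthest right.

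To relate the members to steroid output, the Leydig cells of each library were ranked by the share of their UMIs in the 6 steroid genes, cut into 3 parts of equal size, and the high part was compared with the low part within each library. A part held 570 and 513 cells in TOs and 180 and 105 in testes. The median share was 0.0679 and 0.0349% in the low and 0.982 and 0.546% in the high part of TOs, and 0.385 and 1.15% against 1.48 and 2.26% in testes. The parts are ranges of one score and no cell types. Of all Leydig cells of a library, 53 to 201 lay within 10% of a part's limit, on either side of it. The high parts were deeper, with a median of 13820 against 7298 and 13740 against 9774 UMIs per cell in TOs and 6442 against 5679 and 9958 against 8598 in testes. The sum of the 5 Leydig markers, most of them also in the score, went from 2910 to 13791 and from 609 to 6038 CPM in TOs. In testes it went from 5673 to 19881 and from 11375 to 23777 CPM. All 7 stroma markers were lower in the high part of each library, their sum going from 2236 to 416 and from 1972 to 431 CPM in TOs and from 2166 to 981 and from 550 to 300 CPM in testes. In the low part of TO replicate 2 the stroma markers thus summed higher than the Leydig markers. The part of these markers in the members' differences was not tested.

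No member was called between the parts, where 1.22% of 13511 genes were called higher and 2.25% lower, though 13 of 30 members had an unadjusted p below 0.05 (30.4% of all genes). With genes of any count kept, 1 was called higher and 1 lower, where 436 of 23687 genes were called higher and 571 lower. The fold change of the high over the low part was above 0 in 23 of the 30 (45.3% of all genes), among them all 9 sterol ring genes (median 0.45), and its median over the members was 0.27. At an adjusted p below 0.05 without a fold threshold 9 members were higher and none lower, where 7.38% of all genes were higher.

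Tm7sf2 had the largest of these changes. In the low and high part it stood at 17.9 and 42.9 CPM in TO replicate 1, 10.4 and 21.1 CPM in TO replicate 2, 58.9 and 88.6 CPM in testis replicate 1 and 31.9 and 43.4 CPM in testis replicate 2. It was higher in the high part of each library, by 0.97 on the log2 scale (adjusted p = 0.0043). Sc5d went from 121 to 291 and from 52.8 to 103 CPM in TOs and from 226 to 298 and from 189 to 252 CPM in testes (0.87, adjusted p = 0.0056). Dhcr7 went from 41.5 to 53.7 and from 22.4 to 35.6 CPM in TOs and from 113 to 216 and from 163 to 224 CPM in testes (0.69, adjusted p = 0.0059). For Dhcr7 the high part of either TO library was still below the low part of either testis library. Fdps went from 306 to 517 and from 168 to 281 CPM in TOs and from 742 to 1071 and from 761 to 853 CPM in testes (0.64, adjusted p = 0.0071), and here too the high parts of TOs were below the low parts of testes.

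The relation differed between TOs and testes for 1 member, Apoe, by a test of the interaction (0.252% of all genes were called in this direction). Apoe went from 2748 to 287 and from 1379 to 232 CPM from the low to the high part in TOs, and went from 1832 to 1237 and from 798 to 1018 CPM in testes. The difference was -2.87 on the log2 scale (SE 0.27, adjusted p = 0.00035), and the testis libraries went opposite ways. Apoe was highest in macrophages and next highest in stroma, and markers of both moved with it in TOs. The 6 macrophage markers summed to 55.2 and 34.7 CPM in the low and high part of TO replicate 1, 58.3 and 33.05 CPM in TO replicate 2, 29.9 and 5.85 CPM in testis replicate 1 and 1.06 and 2.77 CPM in testis replicate 2, and 4 of the 6 were lower in the high part of each TO library. Their part in the Apoe result was not tested. The call was lost with no upper limit on genes and UMIs per cell and at a finer clustering. Scap went from 75.8 to 169 and from 55.1 to 167 CPM in TOs and from 61.7 to 79.4 and from 93.5 to 88.7 CPM in testes (interaction 1.17, adjusted p = 0.026, not called). Abca1 went up in both TO libraries, from 625 to 823 and from 382 to 667 CPM, and down in both testis libraries, from 648 to 461 and from 640 to 483 CPM (interaction 0.98, adjusted p = 0.014, not called).

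**Figure D5:**
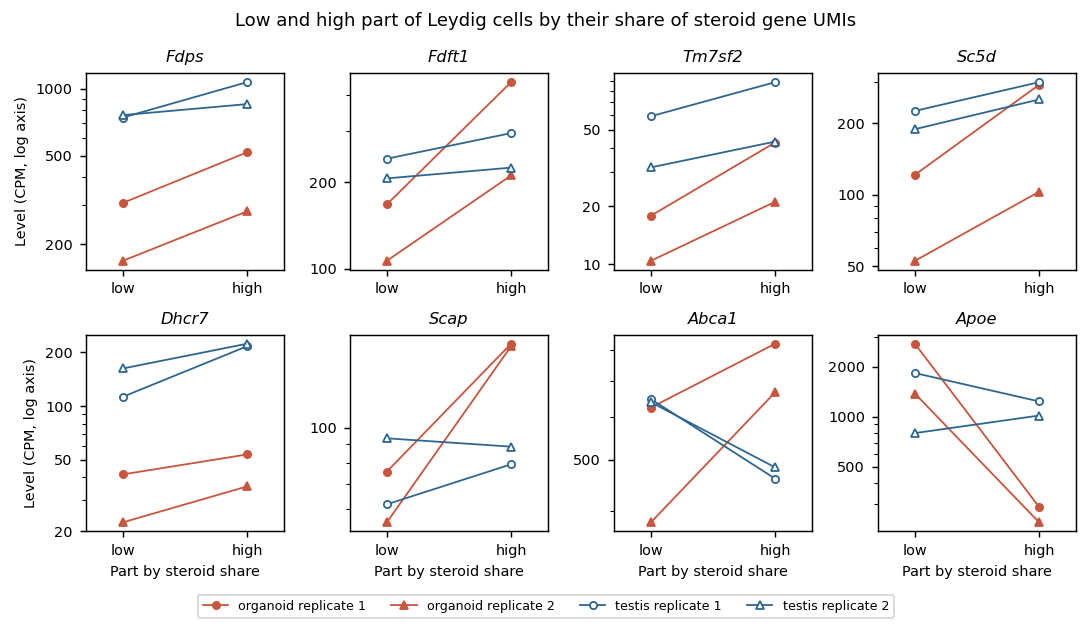
Levels (CPM, log axis) of 8 members in the low and high part of Leydig cells by their share of steroid gene UMIs, 1 line per library. Fdps, Fdft1, Tm7sf2, Sc5d and Dhcr7 are higher in the high part of each library. Abca1 goes up in TOs and down in testes, and Apoe goes from 2748 to 287 and from 1379 to 232 CPM in TOs.

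Among germ cells, spermatogonia and early spermatocytes were tested. Of 27 members fitted in spermatogonia none was called, where 0.343% of 11957 genes were called higher and 8.58% lower, and 9 had an unadjusted p below 0.05 (25.7% of all genes). Msmo1, at 75.4 and 69.2 CPM against 37.2 and 42.5 CPM, had an adjusted p of 0.00977 but a log2 fold change of 0.81, short of the threshold. The 9 mevalonate and squalene genes had fold changes from -0.52 to 0.55. Spermatogonia of TOs and testes came largely from different clusters, one led by Crabp1 and Ccna2 holding 61.9 and 71.9% in TOs and 1.54 and 0.457% in testes, and one led by Hist1h2ap and Cenpa holding none in TOs and 67.6 and 69.4% in testes. In early (leptotene and zygotene) spermatocytes 19 were fitted, since 11 were left out and Mvd had too few UMIs, and 1 was called, where 1.04% of 9982 genes were called higher and 11.9% lower. This was Fdft1, at 37.6 and 39.0 CPM in TOs and 120 and 97.3 CPM in testes (-1.53, SE 0.27, adjusted p = 0.00123). Its level was 349 and 252 CPM in late spermatocytes and 348 and 325 CPM in round spermatids of testes, and the part of free RNA from these stages was not tested. A cluster with Meiob among its leading genes held 12.1 and 10.3% of the early spermatocytes of TOs and 21.8 and 48.6% of those of testes. Over both libraries, TOs held 100 late spermatocytes and testes 1611, and TOs held 65 round spermatids and testes 3718. The call was lost without TO replicate 1 (-1.49, adjusted p = 0.0257) and without TO replicate 2 (-1.63, adjusted p = 0.0167). With genes left out from 2 times the level of other cells Fdft1 was not fitted. Over the 14 alternatives with a value the fold change ran from -1.70 to -1.33. Without testis replicate 1 more members were called, as were more genes over all. The median log2 fold change of the members was then 0.18, against 0.12 with all libraries.

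The 20 other pathway genes, no members of the list, were counted as a group. In Leydig cells 17 were fitted and none was called (1.47% of all genes), with 11 below 0 (48.6% of all genes). Scarb1, the high density lipoprotein receptor, had a log2 fold change of -2.23 (adjusted p = 0.0171) and Nr1h3, the sterol receptor LXR alpha, one of -3.66 (adjusted p = 0.0171). In Sertoli cells 2 of 17 were called higher (6.41% of all genes) and 1 lower (12.4%). Scarb1 and Nr1h3 were named after their values were seen, as were the calls outside Leydig cells.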

How the data were processed

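The files hold raw UMI counts per gene and cell barcode, which the authors made with Cell Ranger 7.1.0 against mm10, per the labels' processing notes, and deposited without normalization (74988295 to 119966959 UMIs and 11826 to 14643 barcodes per library). From these counts, barcodes were kept if they held between 1000 and 5000 genes, no more than 20000 UMIs and a mitochondrial share of 10% or less, and doublets were removed with Scrublet in place of the authors' DoubletFinder (1119 to 1715 per library). Cells were normalized, reduced to 30 principal components (20 for germ cells) of 2000 variable genes without the members, integrated with a reimplementation of Harmony and clustered with leidenalg 0.10.2. The steroid genes were not left out of the variable genes. A cluster took a name where 3 or more of the type's markers were enriched and found in 10% or more of its cells and, for somatic types, one stood among its leading 50 genes, a limit set after seeing the data. Other clusters stayed unnamed.

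UMIs were summed per library and type (at least 10 cells in each library) and tested with edgeR 4.0.16 (TMM, filterByExpr, quasi-likelihood F test, Benjamini-Hochberg over all genes fitted), with no replicate block. The standard error is the fold change over the root of F. DESeq2 1.42.0, other filters, the background subtraction and the removal of each library were the alternatives. On simulated counts of the 6 single-type tests, 91.2 to 96.5% of genes changed 4-fold or more were recovered and 0 to 2 unchanged genes were called. These shares hold for the simulated spread alone. In the Leydig cells themselves Star, Cyp17a1, Hsd3b6 and Hsd17b3 each changed more than 4-fold and were not called. The simulated recovery is therefore no measure of the power of that test. The members and lists were chosen with earlier results of these data known. By rule, values were given for members called in any type, members with a log2 fold change past 1 in Leydig cells, and the 6 steroid genes. Other members given with values, such as Scap, Lipe and Srebf2, were chosen after their values were seen. The values of 1 other pathway gene are not reported here. In the single-type tests p-values measure the spread between 2 libraries per group. In the tests with the library as a block they measure how differences within a library vary between libraries.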

Additional observations from a re-analysis of the deposited data

Results flagged for a closer look

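In Leydig cells 13 members had a fold change (TOs over testes) that differed from the mean of Sertoli cells, stroma and macrophages in the test of the difference itself. On the log2 scale the difference was -3.68 for Dhcr7, -2.41 for Sc5d, -2.35 for Lss, -2.10 for Apoe, -2.05 for Fdps, -2.03 for Stard4, -2.01 for Insig1, -1.94 for Msmo1, -1.68 for Acat2, -1.58 for Hmgcs1, -1.48 for Soat1, -1.25 for Srebf1 and -1.10 for Ebp. Adjusted p-values (edgeR) ran from 4.9e-05 for Dhcr7 to 0.0094 for Acat2.

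The change of Apoe from the low to the high part of Leydig cells, ranked by steroid genes, differed between TOs and testes by -2.87 on the log2 scale (adjusted p = 0.00035).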

How the results depend on the processing

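Counts of called members held within 1.5 times of the reported count with DESeq2's size factors in each comparison, and elsewhere moved as follows. In Leydig cells (0 called) DESeq2 gave 3, an adjusted p below 0.05 without a fold threshold 2, and no gene left out or no doublet removal 1 each. Of 12166 genes, DESeq2 called 367 higher and 696 lower, and the looser p 395 and 682. No gene left out called 310 higher and 1873 lower of 15554 genes, and no doublet removal 68 and 176 of 12367. Calls over all genes moved too, so a moved count is not by itself a result about the members. In Sertoli cells (5) the looser p gave 8, leaving genes out from 2 times the level of other cells 3, no upper limit on genes and UMIs 3, and either background subtraction 0. Over all genes, the looser p called 2023 higher and 2452 lower of 11851, and 2 times 423 and 494 of 9006. No upper limit called 646 and 916 of 12051, and the subtractions 87 and 114 of 11183 and 89 and 146 of 11422. In stroma (7) the looser p gave 12, 2 times 1, no doublet removal 4, and either subtraction 0. Over all genes, the looser p called 908 higher and 3045 lower of 14358, and 2 times 144 and 923 of 11234. No doublet removal called 246 and 1945 of 14023, and either subtraction 0. In macrophages (2) DESeq2 gave 1, the looser p 6, 2 times 0, and either subtraction 0. Of 9905 genes, DESeq2 called 228 higher and 1197 lower, and the looser p 637 and 1581. The 2 times limit called 115 and 225 of 7204 genes, and either subtraction 0. In spermatogonia (0) the looser p gave 4 and no gene left out 1, where they called 274 of 11957 and 139 of 13600 genes higher, and 1466 and 1711 lower. In early spermatocytes (1) any count kept gave 3, the looser p 6, no gene left out 2, and 2 times, where Fdft1 was not fitted, 0. Over all genes, any count kept called 257 higher and 1559 lower of 14135, and the looser p 437 and 1604 of 9982. No gene left out called 182 and 1642 of 11153, and 2 times 29 and 335 of 7726. For Leydig cells against the other somatic cells (13) the looser p gave 21, no Harmony 7, subtraction 0, and subtraction in testes alone 2. Over all genes, the looser p called 701 higher and 1221 lower of 11981, and no Harmony 237 and 405 of 11912. Subtraction called 4 and 1 of 11923, and subtraction in testes alone 54 and 292 of 11886. Under subtraction the difference of Fdps turned to 0.9959 (adjusted p = 1). Between the steroid parts (0) any count kept gave 2, the looser p 9 and no doublet removal 1. Over all genes, any count kept called 436 higher and 571 lower of 23687. The looser p called 997 and 1128 of 13511, and no doublet removal 157 and 311 of 13736. For their interaction (1) any count kept gave 4, the looser p 3, and no upper limit or the finer clustering (resolution 2) 0. Over all genes, any count kept called 138 higher and 103 lower of 23687, and the looser p 91 and 134 of 13511. No upper limit called 1 and 0 of 13387, and the finer clustering 3 and 1 of 13380. The subtractions do not apply to germ cells and were not run there.

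Leaving out 1 library gave 0 to 1 calls in Leydig cells, 3 to 6 in Sertoli cells, 2 to 10 in stroma, 0 to 6 in macrophages, 0 to 2 in spermatogonia, 0 to 6 in early spermatocytes, 1 to 21 for Leydig against other somatic cells, 0 to 4 between the steroid parts and 1 to 3 for their interaction. A lone library was assumed to vary like the other group.

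With the replicate number as a block, stroma gave 14 calls, macrophages 4 and early spermatocytes 2, and the other single types kept their counts. Over all genes, the block called 692 higher and 2852 lower of 14358 in stroma. In macrophages it called 544 and 1477 of 9905, and in early spermatocytes 260 and 1459 of 9982. Same-numbered libraries deviated together only weakly (correlations 0.0257 to 0.169 over genes), and with 2 pairs, and no label that ties a number to an animal or batch, the numbers were not taken to pair the libraries. Of 462 alternatives over 29 called values, 326 kept the call, 135 lost it and 1 reversed.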
